A study of Mus musculus with 16 samples.

Results

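Of the 13115 sites at which Oct4 was called during reprogramming with Oct4, Sox2 and Klf4, 818 (6.24%) carried an Oct4 summit at day 1, at day 5 and at day 7. These constitutively bound sites are described here by their sequence, position, strength and occupancy by other factors. A summit is the base of highest enrichment in a ChIP-seq peak, and ChIP-seq recovers with an antibody the DNA to which a protein is bound. Summits of the 3 Oct4 libraries were merged when the next lay within 100 bp, and merged sites on chromosomes 1 to 19, X and Y were kept. The members were chosen by the presence of a summit in all 3 Oct4 libraries, so their Oct4 scores are given as a description and were not tested. The sites called at days 1 and 5 only (1202) and at days 5 and 7 only (416) share 2 of the 3 days with the members and served for comparison. The 265 sites of days 1 and 7 only share 2 days as well. Their shares are given for the POU motifs and for Sox2 in Oct4-SK, without a difference from the members.

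Reprogramming started from OG2 MEFs, embryonic fibroblasts of mice that carry a GFP reporter driven by Oct4 regulatory sequence. All groups received retroviral Sox2 and Klf4 (SK) with 1 POU factor, and days were counted from the change to iCD1, a chemically defined reprogramming medium. The 3 Oct4 libraries came from Oct4-SK cells. Of the other 10, 2 profiled Oct4defSox2 (days 1 and 5, with SK), 1 Oct4 S151M (day 1, with SK) and 1 Oct6 M151S (with SK). The remaining 6 profiled Sox2 at days 1 and 5, each in the cocktails with Oct4, with Oct6 and with Oct4defSox2. The study's methods name Sox2 antibodies of different suppliers and do not say which library had which. A difference of antibody between Sox2 libraries was therefore not accounted for. Oct4defSox2 is an Oct4 mutated where it contacts Sox2. Oct4 S151M and Oct6 M151S exchange a residue that governs how the POU factors form homodimers. The labels of the Oct6 M151S library name day 1 in its title and day 2 in its description of the sample, and its calls reached down to a score of 2.30, whereas the lowest score of the other libraries lay between 4.00 and 4.12. Each condition was 1 library, so all intervals below cover counting error among sites, no p-value was computed, and each difference compares libraries rather than conditions. The ChIP-seq methods of the study describe no sorting of the cells. The 13 lists held between 1038 (Oct4defSox2, day 5) and 101170 (Oct4 S151M) summits, so how many sites a library can share depends on its length.

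Oct4 (encoded by Pou5f1) is a POU transcription factor with a pair of DNA-binding domains that read the octamer, ATGCAAAT. Together with Sox2 it binds the composite SoxOct element, in which a Sox site lies directly beside an octamer-like site, and this element is frequent in enhancers of pluripotent cells. Oct4 can also bind as a homodimer on the palindromic MORE and on MORE+1, which has an extra base between its parts. Matches of these 4 POU motifs were searched on both strands within 100 bp of the centre of each site, allowing 2 mismatches for SoxOct, 1 for MORE and MORE+1 and 0 for the octamer. An octamer can lie inside a SoxOct match, and a SoxOct and a MORE match can overlap.

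The sequences below, read from the GRCm38 (mm10) genome, show members of high rank in each motif class, ordered as SoxOct, MORE, both, octamer alone and no POU motif. Each is printed 5′ to 3′ on the strand of its motif, with the matched motif in capitals (MORE in the site with both) and flanking bases in lower case. For the class with both motifs, the second-ranked site is shown. The last pair has no match, so its bases around the centre are all in lower case.
Klf13 site, chr7:63957227-63957281, plus strand: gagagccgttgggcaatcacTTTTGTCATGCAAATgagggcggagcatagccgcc
Shc3 site, chr13:51491831-51491885, minus strand: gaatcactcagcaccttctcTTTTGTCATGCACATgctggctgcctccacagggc
Kremen1 site, chr11:5237905-5237956, plus strand: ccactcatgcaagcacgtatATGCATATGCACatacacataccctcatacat
Rnf169 site, chr7:99980493-99980544, plus strand: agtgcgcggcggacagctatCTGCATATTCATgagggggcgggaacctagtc
Rcn1 site, chr2:105370298-105370349, plus strand: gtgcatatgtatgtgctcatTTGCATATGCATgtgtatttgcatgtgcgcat
Exoc4 site, chr6:33454536-33454583, plus strand: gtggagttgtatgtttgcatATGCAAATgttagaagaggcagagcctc
Ryr2 site, chr13:11916582-11916629, plus strand: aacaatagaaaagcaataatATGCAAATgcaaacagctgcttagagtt
Lims1 site, chr10:58358382-58358442, plus strand: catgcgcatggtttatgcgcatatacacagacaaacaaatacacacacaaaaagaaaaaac
Mttp site, chr3:138138236-138138296, plus strand: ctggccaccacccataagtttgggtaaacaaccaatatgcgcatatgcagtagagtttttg

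The next set holds members within 50 kb of a coding start of a pluripotency gene, together with those nearest to Sox21 and Spata13. Capitals again mark the SoxOct match (Pou5f1, Lefty1, Lefty2 and Sox21) or the MORE match (Tet2 and Spata13), and the Rif1 and Gdf3 sites had no match. The Fbxo15 site, which had no match either, is not printed. The Tet2 match is shown with fewer flanking bases.
Pou5f1 site, chr17:35504029-35504083, minus strand: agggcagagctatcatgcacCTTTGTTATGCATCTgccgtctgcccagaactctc
Lefty1 site, chr1:180933849-180933903, minus strand: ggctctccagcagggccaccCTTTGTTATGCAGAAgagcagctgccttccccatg
Lefty2 site, chr1:180888806-180888860, minus strand: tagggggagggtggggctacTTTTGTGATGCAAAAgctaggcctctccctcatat
Sox21 site, chr14:118230324-118230378, plus strand: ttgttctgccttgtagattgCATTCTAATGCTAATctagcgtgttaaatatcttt
Tet2 site, chr3:133544314-133544343, plus strand: cgcctccgcATCAATATTCATaaggcagtt
Spata13 site, chr14:60653415-60653466, plus strand: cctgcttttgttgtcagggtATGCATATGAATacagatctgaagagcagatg
Rif1 site, chr2:52072221-52072281, plus strand: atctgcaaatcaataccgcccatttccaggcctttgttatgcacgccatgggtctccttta
Gdf3 site, chr6:122608583-122608643, plus strand: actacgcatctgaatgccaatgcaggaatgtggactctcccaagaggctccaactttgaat

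A SoxOct match was present in 302 members (36.9%, 95% interval 33.7% to 40.3%), against 17.6% of all merged Oct4 sites. The share was 16.4% at sites of days 1 and 5 only, 20.5 percentage points lower (interval of the difference 16.6 to 24.4). Sites of days 5 and 7 only had 42.3%, and the difference of -5.39 points had an interval from -11.2 to 0.354 that included 0, whereas 6 of 10 alternatives gave an interval under 0 (from -5.26 to -6.69 points). Sites of days 1 and 7 only had 31.3% (26.0% to 37.1%). In windows 2 kb to either side of the members, 1.10% held a SoxOct match. Members thus carried the composite element more often than sites called at days 1 and 5 only, in each of the 3 tertiles of the day 1 score. Of the 302 matches, 6 were perfect, 67 had 1 mismatch and 229 had 2. Of the mismatches, 67.8% fell in the octamer part of the element. The share was similar at sites of days 1 and 5 only (65.8%) and of days 5 and 7 only (63.0%).

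MORE or MORE+1 was found in 137 members (16.7%, 14.3% to 19.5%), against 9.1% of all merged sites and 0.917% of the windows 2 kb away. Sites of days 1 and 7 only had 6.79%. The order of the other comparison classes was the opposite of that for SoxOct. Sites of days 5 and 7 only had 8.89%, 7.85 points below the members (3.91 to 11.5). Sites of days 1 and 5 only had 20.4%, and the difference of -3.63 points (-7.01 to -0.153) lost its side of 0 in several alternatives, among them a linking distance of 50 bp. The difference from sites of days 5 and 7 only shrank to 0.677 points (-1.94 to 2.88) when 1 mismatch fewer was allowed. MORE matches numbered 96, of which 29 were perfect, and MORE+1 matches 42, of which 8 were perfect.

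**Figure D1:**
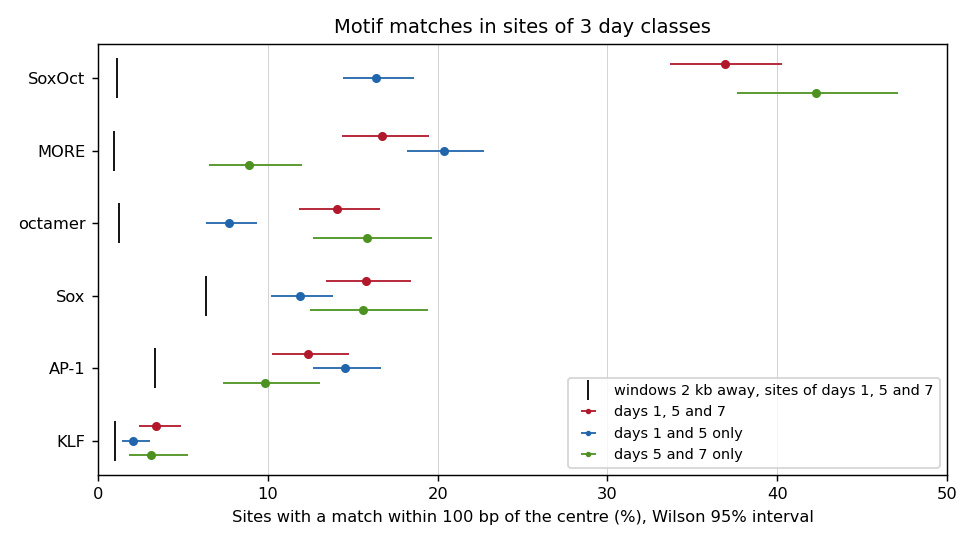
Share of sites (%) with a match of each motif within 100 bp of the centre, for members (days 1, 5 and 7, red), sites of days 1 and 5 only (blue) and sites of days 5 and 7 only (green). Bars are Wilson 95% intervals and black ticks mark windows 2 kb from the members; SoxOct reached 36.9% in members and 16.4% in sites of days 1 and 5 only.

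The octamer itself lay in 115 members (14.1%, 11.8% to 16.6%), against 9.26% of all merged sites. This was 6.32 points more often than in sites of days 1 and 5 only (3.56 to 9.22). Sites of days 5 and 7 only had 15.9%, a difference of -1.81 points (-6.22 to 2.28), and sites of days 1 and 7 only had 16.2%. Split without overlap, 289 members had SoxOct and no MORE, 124 had MORE or MORE+1 and no SoxOct, 13 had both, 34 had an octamer alone and 358 (43.8%) had none of the 4. The share without a POU motif was 60.4% at sites of days 1 and 5 only, 16.6 points higher (12.2 to 20.96), and 69.4% over all merged sites. At sites of days 5 and 7 only it was 45.9%, and members minus these was -2.15 points (-8.01 to 3.69). Sites of days 1 and 7 only had 56.6%. Allowing 1 more mismatch left 68 members (8.31%) without a match, but then only 68.0% of the windows 2 kb away were without one, against 96.9% before. Under that looser match the Rif1 and Gdf3 sites held a SoxOct, while the Lims1 site still held none.

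POU matches lay close to the centre of the members, at a median distance of 16 bp for SoxOct, 12.5 bp for MORE and 13.5 bp for both MORE+1 and the octamer. Within 30 bp of the centre lay 79.5% of the SoxOct and 82.3% of the MORE matches. Motifs of other factors were searched too. The AP-1 motif, read by Fos and Jun factors of fibroblast enhancers, was found in 12.3% of members, 14.6% of sites of days 1 and 5 only, 10.8% of all merged sites and 3.36% of windows 2 kb away, at a median distance of 49 bp. A single Sox site was found in 129 members (15.8%), against 12.1% of all merged sites and 6.36% of the windows 2 kb away. A KLF site was found in 28 members (3.42%), against 1.95% of all merged sites and 0.978% of the windows. For all 3 the interval of the difference from sites of days 5 and 7 only included 0, and the Sox site was 3.87 points more frequent than in sites of days 1 and 5 only (0.828 to 7.03).

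**Figure D2:**
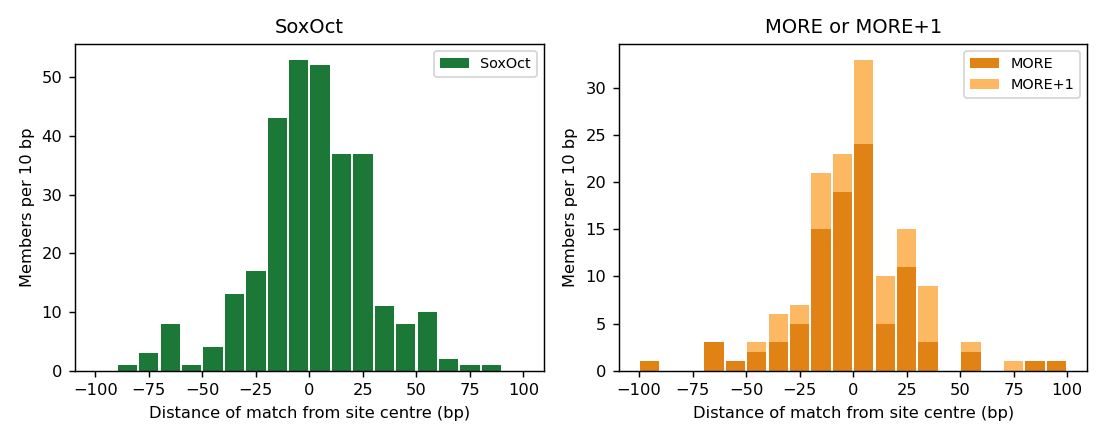
Position of the SoxOct match (left) and of the MORE and MORE+1 matches (right) relative to the centre of the member, in bins of 10 bp; bars count members. Most matches lie within 30 bp of the centre, with medians of 16 bp (SoxOct) and 12.5 bp (MORE).

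Members were mostly distal. A coding start is here the annotated transcription start of a protein-coding gene. By the GENCODE M21 annotation, 403 lay in introns of protein-coding genes, 400 between genes, 12 in a UTR and 3 in coding sequence. The median distance to the nearest coding start was 38426 bp, against 55963 bp at sites of days 1 and 5 only, 40712 bp at sites of days 5 and 7 only and 51193 bp over all merged sites. Within 1 kb of a coding start lay 50 members (6.11%, 4.67% to 7.97%), against 4.05% of all merged sites. The difference was 1.87 points (-0.0697 to 3.98) from sites of days 1 and 5 only and 2.99 points (0.399 to 5.25) from sites of days 5 and 7 only, and the latter shrank to 0.479 points with a promoter distance of 5 kb. The 818 members had 774 different nearest genes. Klf6, a Krüppel-like factor, was nearest to 4 members, and Nrp2, a semaphorin co-receptor, and Oxr1, an oxidative stress response gene, to 3 each. No member lay on chromosome Y and 9 lay on chromosome X.

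The 50 promoter members differed in sequence from the others, a split made after the values had been seen. MORE or MORE+1 was present in 18 of them (36.0%) and in 15.5% of the other 768 members, a difference of 20.5 points (8.33 to 34.6). At sites of days 1 and 5 only, the same split gave 23.5% and 20.2%, a difference of 3.29 points (-6.54 to 16.7). Oct4defSox2 was called at day 5 on 25 of the 50 promoter members (50.0%) and on 19.7% of the others, 30.3 points apart (16.7 to 44.0). A Sox2 summit of any library lay at 14 promoter members (28.0%) and at 40.4% of the others, and the interval of that difference (-23.5 to 1.72) included 0.

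The 5 promoter members with the highest mean rank all had a MORE-type match. They lay 74 bp upstream of Rnf169 (a ubiquitin-binding factor of the DNA damage response), 790 bp upstream of Gabarapl2 (an autophagy protein), 317 bp upstream of Vamp1 (a vesicle fusion protein), and 442 and 853 bp downstream of a start of Crlf2 (a cytokine receptor subunit). The Oct4 scores, which are −log10 p-values of the peak caller, were 120.2, 259.2 and 102.7 at the Rnf169 site at days 1, 5 and 7. At Gabarapl2 they were 83.6, 201.7 and 99.3, and at Vamp1 66.7, 145.6 and 168.6. The site 442 bp into Crlf2 had 152.6, 259.2 and 82.5. The Crlf2 pair, 411 bp apart, was 1 of 2 pairs of neighbouring members less than 1 kb apart. All 5 sites were also called for Oct4defSox2 at both days, with day 5 scores of 289.9 (Rnf169), 259.6 (Gabarapl2), 194.0 and 69.8 (Crlf2) and 108.4 (Vamp1). None had a Sox2 summit in Oct4-SK cells at either day.

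Members were strong sites of each Oct4 library, which follows in part from how they were selected, since a strong site is more easily called 3 times. The day 1 scores ranged from 4.16 to 310.8, those of day 5 from 4.19 to 285.1 and those of day 7 from 4.12 to 265.6. Because scores depend on sequencing depth, each was converted to its percentile within its own library. The median percentile was 81.5 at day 1, 83.9 at day 5 and 75.3 at day 7. Sites of days 1 and 5 only had medians of 73.4 and 61.4, and sites of days 5 and 7 only 61.4 and 67.8. In the top 10% of all 3 libraries were 74 members, and 10 were below the median of all 3. Reads were shorter in the day 7 library, so day and read length cannot be told apart.

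The order of the members differed between the libraries. The lists shorten from 8199 summits at day 1 to 4846 at day 5 and 3614 at day 7, so a percentile is a place in lists of different length and its change is not a change in binding strength. The rank correlation across the 818 sites was 0.46 between days 1 and 5, 0.36 between days 5 and 7 and 0.15 between days 1 and 7; this describes 3 libraries and carries no test. Between days 1 and 7, 131 members rose by over 25 percentile points, 206 fell by over 25 and 481 moved less. Members with SoxOct had median percentiles of 79.3, 83.3 and 83.5 at days 1, 5 and 7. Members with MORE had 92.3, 94.3 and 70.8, and members without a POU motif 78.4, 79.8 and 68.3. Thus MORE members ranked above SoxOct members at days 1 and 5 and below them at day 7. By over 25 points fell 44 of 124 MORE members (35.5%) and 47 of 289 SoxOct members (16.3%), and 11 (8.87%) and 62 (21.5%) rose.

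**Figure D3:**
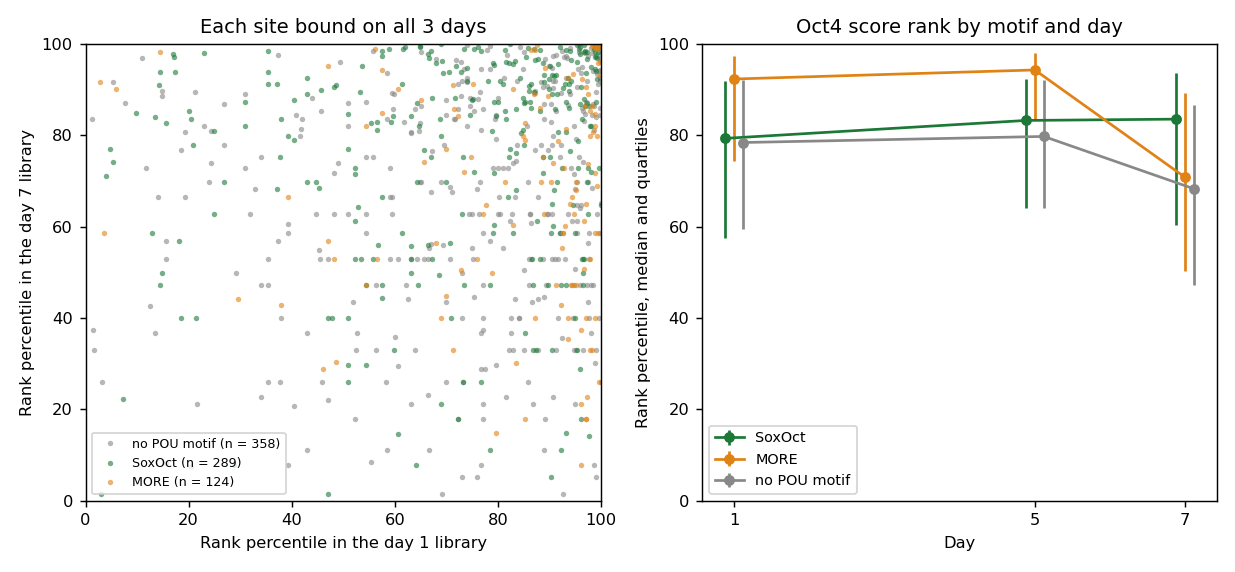
Left, rank percentile in the day 1 (x axis) and day 7 (y axis) Oct4 libraries of each member with SoxOct (green, 289), MORE (orange, 124) or no POU motif (grey, 358); members with both or an octamer alone are not drawn. Right, median percentile with quartiles at days 1, 5 and 7; MORE members have medians of 92.3, 94.3 and 70.8 and SoxOct members of 79.3, 83.3 and 83.5.

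The 3 largest falls in rank from day 1 to day 7 were at sites without a POU motif. The score in an intron of Lrrc49 was 82.2 at day 1, 33.1 at day 5 and 4.76 at day 7, a fall by 93.7 percentile points. In an intron of Npsr1, which encodes a neuropeptide receptor, it was 33.1, 8.10 and 4.12, and 123910 bp from Runx1t1, a transcriptional co-repressor gene, it was 73.8, 13.6 and 5.01. At day 7 all 3 lay near the lowest called score. The 3 largest rises were a MORE site 587 bp upstream of Mphosph6, an RNA exosome cofactor, with 4.34, 18.4 and 27.9 (88.9 points), a site 330569 bp upstream of Dio3, with 4.89, 14.5 and 28.3 (86.4 points), and a site 15567 bp downstream of the start of Inmt, with 5.87, 15.2 and 45.2 (85.9 points). At day 1 these sites lay near the lowest called score. Dio3 inactivates thyroid hormone and Inmt is a methyltransferase.

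The highest-ranked members of the motif classes, most of whose sequences are printed above, had percentiles of at least 89.6 in each Oct4 library. The MORE site in an intron of Kremen1, which encodes a receptor of the Wnt inhibitor Dickkopf, had the highest score of the day 1 library (310.8), then 242.3 and 108.4. The SoxOct site 18345 bp upstream of Klf13, a Krüppel-like factor, had 103.0, 115.9 and 80.5, and the SoxOct site in an intron of the adaptor gene Shc3 had 79.0, 101.5 and 122.0. Of the sites without a POU motif, those in introns of Lims1 (a focal adhesion protein) and Mttp (a lipid transfer protein) ranked highest, with 145.6, 152.5 and 52.7 and with 62.7, 145.6 and 79.5. The octamer sites in introns of Exoc4 (an exocyst subunit) and Ryr2 (a calcium channel) had 53.1, 64.7 and 38.1 and 89.4, 31.9 and 26.7. Sites with both motifs were led by 1 nearest to Tnfaip8, in an intron of Dmxl1, with 83.0, 43.2 and 38.1, and 1 nearest to Rcn1, in an intron of Them7, with 39.3, 24.8 and 54.4.

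Occupancy by the other factors was then asked for, counting a member as bound when a summit of the other library lay within 100 bp. Oct4 S151M, an Oct4 with the Oct6 residue at the homodimer interface, was called at 800 of the 818 members (97.8%, 96.5% to 98.6%), against 63.3% of all merged Oct4 sites. Oct4defSox2 at day 1 was called at 717 members (87.7%, 85.2% to 89.7%), against 46.8%. At day 5 Oct4defSox2 was called at 176 members (21.5%, 18.8% to 24.5%), against 4.47%, and each of these 176 was also called at day 1. The shares exceeded those of sites of days 1 and 5 only by 5.45 points (3.60 to 7.28), 4.62 points (1.47 to 7.67) and 6.87 points (3.46 to 10.4). When each Oct4 library was cut to the same number of its strongest summits, Oct4 S151M differed by 1.92 points (-0.0578 to 3.90) and Oct4defSox2 at day 1 by 2.57 points (-0.883 to 5.97), so that neither difference was beyond counting error there. Among sites in the middle tertile of the day 1 Oct4 score, the Oct4defSox2 differences were -1.65 points at day 1 and 1.06 points at day 5, with intervals that included 0, and in the highest tertile they were 5.35 and 13.1 points, with intervals above 0. The Oct4 S151M difference was 10.9 points in the lowest tertile and -0.102 points in the highest. The members had a higher median day 1 score (20.9) than sites of days 1 and 5 only (16.9), and the part of this in the differences was not tested beyond these tertiles.

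Sox2 in Oct4-SK cells was called at 199 members at day 1 (24.3%, 21.5% to 27.4%), against 14.7% of all merged sites, and at 196 at day 5 (24.0%, 21.2% to 27.0%), against 6.92%. The day 1 share differed from that of sites of days 1 and 5 only (22.6%) by 1.70 points, with an interval of -2.03 to 5.51. The day 5 share was 13.3 points above theirs (9.95 to 16.8), and this difference kept its side of 0 in all 9 alternatives, from 8.63 to 16.0 points, the tertiles by day 1 score included. The median Oct4 day 5 score was 19.4 at members and 11.1 at sites of days 1 and 5 only. These classes were not matched on that score, so its part in the difference was not tested. Sox2 was thus called at day 5 at members more often than at sites of days 1 and 5 only. The day 5 share was 15.1% at sites of days 5 and 7 only, 8.82 points below the members (4.13 to 13.2). At sites of days 1 and 7 only the shares lay near those of the members, 23.8% at day 1 and 21.1% (16.6% to 26.4%) at day 5. Over the pair of days, 104 members had Sox2 at both, 95 at day 1 alone and 92 at day 5 alone, so the near-equal shares came from partly different sites.

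With the other POU factors, Sox2 was called at fewer members. The members were chosen by Oct4 summits in Oct4-SK cells, so cocktail and that choice cannot be told apart in these differences. In Oct6-SK cells the shares were 4.52% (37 members) at day 1, against 3.56% of all merged sites, and 11.5% (94) at day 5, against 3.46%. In Oct4defSox2-SK cells they were 4.89% (40) at day 1, against 4.05%, and 13.3% (109) at day 5, against 6.58%. At day 1 Oct4-SK exceeded Oct6-SK by 19.8 points (17.0 to 22.7) and Oct4defSox2-SK by 19.4 points (16.6 to 22.4). At day 5 the differences were 12.5 points (9.54 to 15.4) and 10.6 points (7.72 to 13.6). The Oct4defSox2-SK library of day 5 held 21563 Sox2 summits, more than the 5832 of Oct4-SK at the same day. At day 1 the lists were longer in Oct4-SK (15222 summits) than in Oct6-SK (3242) and Oct4defSox2-SK (5794), and the sizes moved when each pair of libraries was cut to the same number of its strongest summits, a setting chosen after the data had been seen. Oct4-SK then exceeded Oct6-SK by 9.41 points at day 1 (7.11 to 11.9) and 5.38 points at day 5 (2.73 to 8.07), and Oct4defSox2-SK by 12.6 points (10.1 to 15.2) and 15.8 points (12.97 to 18.7). Between days 1 and 5 the share of members with Sox2 rose by 6.97 points in Oct6-SK (4.79 to 9.29) and by 8.44 points in Oct4defSox2-SK (6.10 to 10.9), whereas in Oct4-SK day 1 minus day 5 was 0.367 points (-2.92 to 3.65). The Oct4defSox2-SK list itself grew from 5794 to 21563 summits. After the same cut, the rise was 7.58 points in Oct6-SK (5.43 to 9.88) and 3.30 points in Oct4defSox2-SK (1.41 to 5.29), and in Oct4-SK day 1 minus day 5 turned to -6.48 points (-9.67 to -3.29), so that the share was higher at day 5 in all 3 cocktails.

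Oct6 M151S was called at 85 members (10.4%, 8.48% to 12.7%), against 6.17% of all merged sites and 10.1% of sites of days 1 and 5 only. Of these 85 summits, 69 had a score of at least 4 and 9 a score of at least 10. The median fold enrichment was 2.93 at these members, against 2.42 over all Oct6 M151S summits. For Oct4 S151M it was 18.2 at the members and 7.32 over all its summits. At sites of days 1 and 5 only the medians were close to those of the members, 2.84 for Oct6 M151S and 17.96 for Oct4 S151M.

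**Figure D4:**
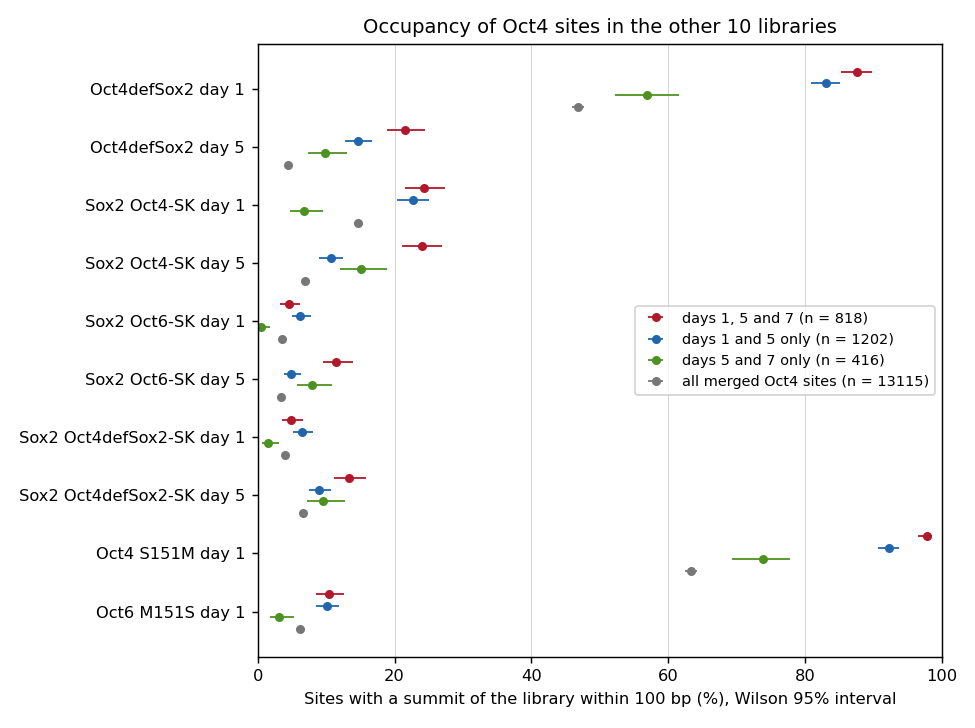
Share of sites (%, x axis) with a summit of each of the other 10 libraries (y axis) within 100 bp, for members (red), sites of days 1 and 5 only (blue), sites of days 5 and 7 only (green) and all merged Oct4 sites (grey), with Wilson 95% intervals. Members reach 97.8% for Oct4 S151M, and for Sox2 in Oct4-SK at day 5 they lie at 24.0% against 10.6% of sites of days 1 and 5 only.

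Members differed by motif in which other factor was called. At day 1, Oct4defSox2 was called at 89.3% of SoxOct and 90.3% of MORE members. At day 5 it was called at 24 of 289 SoxOct members (8.30%) and at 79 of 124 MORE members (63.7%), a difference of 55.4 points (45.9 to 63.8). From day 1 to day 5 the share thus fell by 81.0 points at SoxOct members (75.6 to 84.9), by 26.6 points at MORE members (18.7 to 34.6) and by 68.4 points at members without a POU motif (63.1 to 72.8). The lists held 31070 summits at day 1 and 1038 at day 5, and these falls depended on that. Against the 1038 strongest summits of day 1, a setting chosen after the data had been seen, Oct4defSox2 was called at 89 of 289 SoxOct members (30.8%) and 84 of 124 MORE members (67.7%). MORE members were thus ahead by 36.9 points already at day 1 (26.7 to 46.1), which the near-equal shares in the long list did not show. With these summits the fall to day 5 was 22.5 points at SoxOct members (17.1 to 27.9), 7.26 points at members without a POU motif (2.98 to 11.6) and 4.03 points at MORE members, where its interval (-3.65 to 11.7) included 0. MORE members also ranked higher for Oct4 at day 5. The day 5 difference between MORE and SoxOct members was 15.7, 62.0 and 52.6 points in the lowest, middle and highest tertile of the members by Oct4 day 5 score, each with an interval above 0. The part of Oct4 strength in the difference was not tested beyond these tertiles, which use a library that chose the members.

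The shares were also split by the quality of the match. Oct4defSox2 at day 5 was called at 28 of 37 members with a perfect MORE-type match (75.7%) and at 51 of 87 with 1 mismatch (58.6%), although the interval of the difference (-1.52 to 32.2 points) included 0. Among SoxOct members it was called at 13 of 71 with up to 1 mismatch (18.3%) and at 11 of 218 with 2 mismatches (5.05%), 13.3 points apart (5.06 to 24.0). Sox2 in Oct4-SK at day 5 was likewise called at 28 of the 71 (39.4%) and at 50 of the 218 (22.9%), 16.5 points apart (4.36 to 29.2). These splits by match quality were made after the values had been seen.

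Sox2 in Oct4-SK cells showed the reverse order of the motifs. It was called at 30.1% of SoxOct and 6.45% of MORE members at day 1, a difference of MORE minus SoxOct of -23.7 points (-30.01 to -16.0). At day 5 the shares were 27.0% and 9.68%, a difference of -17.3 points (-24.1 to -9.25). In the lowest tertile of the members by Oct4 day 5 score, the day 5 difference was 4.58 points (-11.2 to 28.4), in the middle -14.1 points (-25.1 to 2.68) and in the highest -36.0 points (-47.5 to -23.1). The day 1 difference was -29.4, -14.7 and -28.8 points in these tertiles, and the interval of the middle one (-26.8 to 2.97) included 0. In Oct6-SK and Oct4defSox2-SK, MORE minus SoxOct at day 1 was -3.12 points (-6.75 to 1.81) and 0.686 points (-3.26 to 6.29). At day 5 it was -12.1 points (-16.9 to -6.39) and -9.12 points (-14.1 to -3.01). A summit of any of the 6 Sox2 libraries lay at 132 of 289 SoxOct members (45.7%), 23 of 124 MORE members (18.5%) and 156 of 358 members without a POU motif (43.6%). Between SoxOct members and members without a POU motif, no difference beyond counting error was found in Oct4-SK, where SoxOct minus no motif was 3.85 points at day 1 (-3.08 to 10.8) and -0.664 points at day 5 (-7.48 to 6.28). Between the Oct4-SK and Oct4defSox2-SK cocktails at day 1, the Sox2 share differed by 26.0 points at SoxOct members (20.96 to 31.2), by 20.1 points at members without a POU motif (15.7 to 24.7) and by 1.61 points at MORE members (-3.62 to 7.12). At MORE members the Oct4-SK share was only 6.45%, so the difference there could not exceed that. This split was not repeated with lists of equal length.

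Oct4 S151M was called at 98.3% of SoxOct and 98.4% of MORE members, so its calls did not separate the motifs (difference 0.117 points, -4.08 to 2.66). Its enrichment was higher at MORE members, with a median fold of 76.2 over 122 sites against 16.2 over 284 SoxOct sites and 14.7 over 347 sites without a POU motif.

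**Figure D5:**
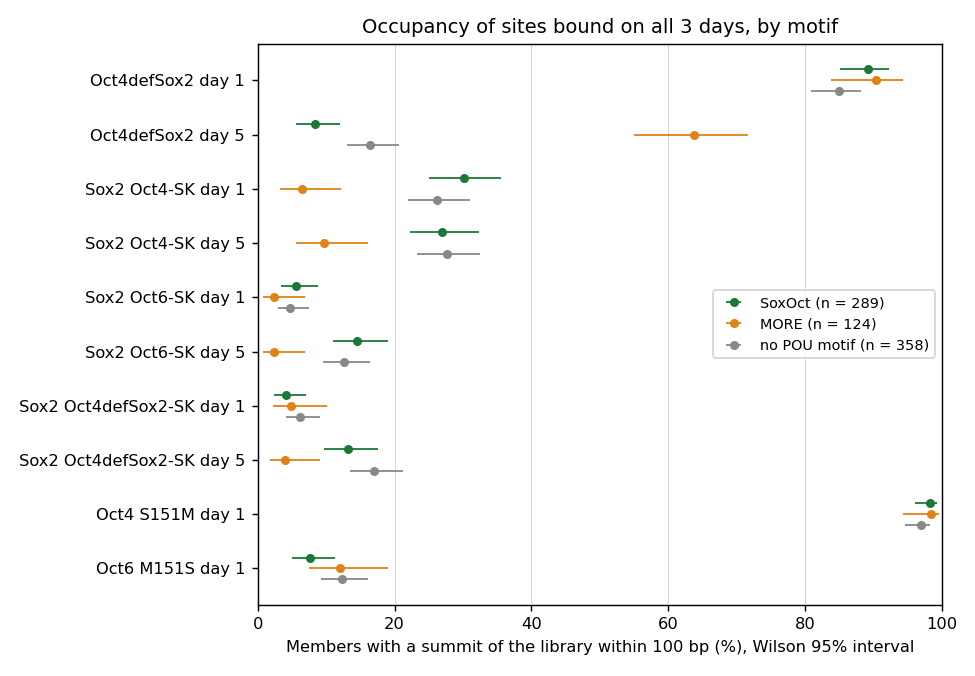
Share of members (%, x axis) with a summit of each of the other 10 libraries (y axis), split into members with SoxOct (green), MORE or MORE+1 (orange) and no POU motif (grey), with Wilson 95% intervals. Oct4defSox2 at day 5 lies at 63.7% of MORE and 8.30% of SoxOct members, and Sox2 in Oct4-SK at day 1 at 6.45% and 30.1%.

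Most members were shared with few of the other libraries. The number of other libraries with a summit was 2 at 297 members and 3 at 218, and 324 members (39.6%) had a summit in at least 1 of the 6 Sox2 libraries, against 32.4% of sites of days 1 and 5 only (difference 7.16 points, 2.90 to 11.4). For all merged sites only the shares by library are given above, so the 39.6% stands without that background. At least 3 other libraries were found at 53.9% of members, 42.1% of sites of days 1 and 5 only and 24.3% of sites of days 5 and 7 only. The 6 members with no summit in another library lay in introns of Nkain2 and Hsf2bp and between genes, 2618 bp from the start of Klrb1a, 12238 bp from Pp2d1, 140106 bp from Dad1 and 213673 bp from Gm31371. Summits in 9 of the 10 other libraries were found at 3 members, in introns of Trpm3, an ion channel gene, and Bmp2k, a kinase gene, and in an intergenic region 2202696 bp from Celf4, the nearest coding gene, and none of these 3 had a POU motif. At the Bmp2k site the Oct4 scores were 84.5, 14.2 and 11.7, Oct4defSox2 had 213.1 and 15.3 at days 1 and 5, and Sox2 in Oct4-SK had 5.27 and 10.0.

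Of 39 pluripotency genes, 8 (20.5%) had a member within 50 kb of a coding start, against 3.98% of the 21827 protein-coding genes and against 56.4% of the same list for any merged Oct4 site. The list had been written with earlier results known, and its share is a count, not a test. The SoxOct member 1969 bp upstream of Pou5f1 had Oct4 scores of 44.7, 26.2 and 155.1 at days 1, 5 and 7, the day 7 value being in the 99.9th percentile. It was also called for Oct4defSox2 at day 1 (48.5), Sox2 in Oct4-SK at day 1 (7.34) and day 5 (13.6), Oct4 S151M (147.6) and Oct6 M151S, the last with 2.89, under the lowest score of the other libraries. It was not called for Oct4defSox2 at day 5 or for Sox2 in the other cocktails.

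Lefty1 and Lefty2, neighbouring genes for inhibitors of Nodal signalling, had SoxOct members 1133 bp and 4283 bp upstream, with scores of 19.6, 19.4 and 38.8 and of 17.4, 24.8 and 22.5. A member 581 bp upstream of Rif1, a regulator of replication timing, had 18.997, 58.8 and 107.0. A member in an intron of Gdf3, a TGF-beta family ligand, had 18.05, 30.96 and 23.2 and lay 17797 bp upstream of Dppa3 (Stella), and a member in an intron of Fbxo15, an F-box protein gene of pluripotent cells, had 11.9, 10.4 and 10.9. All 5 of these sites were called for Oct4defSox2 at day 1 and for Oct4 S151M and for no other of the 10 libraries. At Tet2, an enzyme that oxidises 5-methylcytosine, the MORE member 2 bp from a coding start had 27.7, 74.2 and 35.1 and was called for Oct4defSox2 at day 1 (248.7) and at day 5 (182.8), with no Sox2 summit.

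Sox21 and Spata13 had been singled out in the study, which tested sequences near both in binding and reporter assays. Each had 1 constitutive site. The SoxOct member 6656 bp from the start of Sox21, a Sox factor of neural progenitors, had Oct4 scores of 77.4, 53.9 and 48.9 and was shared with 8 other libraries. Its Sox2 scores were 72.7 and 81.7 in Oct4-SK at days 1 and 5, 25.5 and 69.8 in Oct6-SK, and 87.0 in Oct4defSox2-SK at day 1. The Sox21 site was not called for Oct4defSox2 at day 5, after a score of 221.8 at day 1. The MORE member in an intron of Spata13 had Oct4 scores of 18.7, 13.3 and 12.04 and was shared with 1 other library, Oct4 S151M (338.3). It thus had no Sox2 summit within the sharing distance, whereas the study's figure presents peaks near both genes as constitutive for Oct4 and Sox2.

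The other gene lists are given beside the shares over all coding genes, of which 3.98% had a member and 37.1% any merged Oct4 site within 50 kb. With lists this short, counts of 0 to 2 lie near that background and say little about the members. None of the 15 AP-1 genes and none of the 42 genes listed for TGF-beta signalling had a member within 50 kb, and 7 and 21 of them had some merged Oct4 site. Gdf3, Lefty1 and Lefty2 were listed as pluripotency genes and not in the TGF-beta list. Of 35 mesenchymal genes 2 had one (Meox1 and S100a4), and of 25 epithelial genes 1 (Rab25, a small GTPase of epithelia). Of 30 neural progenitor genes 4 had one: Dll1, a Notch ligand, Rax, an eye field homeobox factor, Sox11 and Sox21. Of 19 Sox genes Sox9, Sox11 and Sox21 were near a member, of 17 Klf genes Klf6 and Klf13, and of 15 POU genes Pou5f1. The SoxOct member 29050 bp from Sox9 had Oct4 scores of 48.9, 59.2 and 109.7, and the SoxOct member 4818 bp upstream of Dll1 had 22.3, 23.8 and 41.8. Proximity does not show that a site acts on the gene.

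Members were compact. The 3 summits spanned a median of 36 bp (quartiles 21 and 57), 817 members had 1 summit in each library, and in 679 (83.0%) no gap between neighbouring summits exceeded 50 bp. At the edge of the rule, 12 members had a largest gap of 91 to 100 bp. Among them, with a gap of 99 or 100 bp, were those near Hat1 (10.7, 16.2 and 4.12), Rab10 (16.3, 21.6 and 9.61) and Lpin1 (12.3, 7.00 and 9.21). Just outside, with a gap of 103 bp, were sites near Sestd1 (30.3, 19.9 and 5.44), Borcs5 (38.6, 11.1 and 8.40) and Cox10 (15.6, 6.41 and 6.49). A linking distance of 90 bp gave 807 members and 110 bp gave 825. The median GC content of the members was 41.8%, between the 39.8% of sites of days 1 and 5 only and the 43.8% of sites of days 5 and 7 only. Mostly repeat sequence were 9.78% of members, also between the 13.1% and 6.25% of these classes.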

How the data were processed

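ChIP-seq summits of 13 libraries from reprogramming OG2 MEFs were analysed, 1 library per condition. The 3 input samples were not analysed here. The authors aligned reads to mm10 with Bowtie2 (version 2.2.5 in the submitters' processing notes), filtered them with SAMtools and called peaks per library with MACS2. The deposited summit score is the −log10 of the p-value, not scaled between libraries. The deposited peak tables of Oct4 S151M and Oct6 M151S also held, as the authors' peak caller wrote them, a fold enrichment, which is a ratio, and each q-value as −log10. The depth of the libraries in reads was not used here. Scores depend on it, so they are printed as deposited and compared between libraries only as ranks.

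Summits of the Oct4 libraries were merged by single linkage at 100 bp, leaving out 49 on other sequences. A site was bound in another library when a summit lay within 100 bp. Motifs were matched as consensus strings in 201 bp windows of GRCm38, and genes were taken from GENCODE M21 (basic). Shares have Wilson 95% intervals and differences Newcombe 95% intervals, paired where the same sites were scored. Where the interval of a difference left out 0, the difference was taken to be beyond counting error. The members, motifs and gene lists were chosen with earlier results of these data known. Named sites were the 2 of highest mean rank in each motif class, the 3 largest rises and falls in rank, the 3 shared with most libraries, those within 50 kb of a pluripotency gene or nearest to Sox21 or Spata13, and the 5 of highest mean rank within 1 kb of a coding start.

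The alternatives were linking and sharing at 50 or at 250 bp, only summits scoring 10 or more, equal numbers of the strongest summits (in the Oct4 libraries and, where 2 other libraries were compared, in those), 1 summit per peak, leaving out sites with all 3 antibodies, other motif settings, a promoter distance of 5 kb and tertiles of the day 1 score. The 3 antibodies are counted by their targets, Oct4, Sox2 and Oct6. Tertiles of the members by day 5 score, and equal numbers of summits in the libraries compared with the members kept, were added after the data had been seen. Python 3.11.15, numpy 2.4.6, pandas 2.3.3, pysam 0.24.0 and matplotlib 3.10.9 were used, and the procedure was tested on simulated data.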

Additional observations from a re-analysis of the deposited data

How the results depend on the processing

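Of 288 alternative values over 32 results, 227 were the same, and 11 results were so in every alternative tried. Same means an unchanged direction and an interval that still included or still excluded 0. For the number of members it means a value within a set ratio of the main one. Of the 11, the rises of Sox2 in Oct6-SK and Oct4defSox2-SK had 1 alternative each, added after the data had been seen. Among these 11 were the SoxOct share of members minus that of sites of days 1 and 5 only (6.68 to 25.9 points), the day 5 difference of MORE minus SoxOct members for Oct4defSox2 (15.7 to 62.0), Sox2 in Oct4-SK at day 5 against sites of days 1 and 5 only (8.63 to 16.0) and the 4 comparisons of Sox2 between cocktails. No alternative removed the choice of the members in Oct4-SK cells or matched the classes on the Oct4 day 5 score. The number of members was 485 with a score of at least 10 and 860 at most otherwise. All values below are percentage points, "early" stands for sites of days 1 and 5 only and "late" for sites of days 5 and 7 only. For the rest, the cause was not tested.

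SoxOct of members minus late, whose interval included 0, excluded it with 250 bp linking (-6.07), equal numbers of summits (-6.53), 1 mismatch fewer (-5.26) or more (-6.69), windows of 50 bp (-5.94) and windows centred on 1 day's summit (-6.37). MORE of members minus early included 0 with 50 bp (-2.90) or 250 bp linking (-2.89), 1 mismatch fewer (-1.38), windows of 50 bp (-2.48) and 1 day's summit (-3.35), and turned to 0.157 in the highest tertile by day 1 score. MORE of members minus late included 0 with 1 mismatch fewer (0.677). The promoter share of members minus early excluded 0 with 50 bp (2.38) or 250 bp linking (1.96), equal numbers (2.86), without sites of all 3 antibodies (2.18) and in the highest tertile (4.05). That of members minus late included 0 with a score of at least 10 (1.25), equal numbers (1.76) and 5 kb (0.479).

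Of the occupancy differences from early sites, Oct4defSox2 at day 1 included 0 with equal numbers (2.57) and in the lowest tertile (5.57) and turned to -1.65 in the middle tertile. Oct4defSox2 at day 5 included 0 in the lowest (2.05) and middle (1.06) tertile. Sox2 in Oct4-SK at day 1 turned to -0.594 with 250 bp and to -2.58 in the lowest tertile. Sox2 in Oct6-SK excluded 0 at day 1 with 250 bp (-2.65) and 1 summit per peak (-2.15) and included it at day 5 in the lowest tertile (1.25). Sox2 in Oct4defSox2-SK at day 1 turned to 0.679 with 50 bp, 0.788 with equal numbers and 0.00998 in the highest tertile, and excluded 0 in the lowest tertile (-4.89); at day 5 it included 0 in the lowest tertile (0.619). Oct4 S151M included 0 with equal numbers (1.92) and turned to -0.102 in the highest tertile. Oct6 M151S turned to -0.666 with 50 bp, -0.741 with 250 bp, -0.871 with a score of at least 10, -0.358 without sites of all 3 antibodies and -3.54 in the lowest tertile.

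Within the members, the fall of Oct4defSox2 at MORE sites included 0 with equal numbers (6.42), also with the members kept (4.03). MORE minus SoxOct for Oct4defSox2 at day 1 turned to -1.96 with a score of at least 10, and to -17.6 and -1.79 in the lowest and highest tertile by day 5 score, and rose to 36.9 with equal numbers and the members kept. For Sox2 in Oct4-SK it included 0 in the middle tertile at day 1 (-14.7) and day 5 (-14.1) and turned to 4.58 in the lowest tertile at day 5. For Oct4 S151M it turned to -0.447 with 250 bp, -1.33 and -0.239 with 1 mismatch fewer and more, and -2.67 in the highest tertile. Sox2 in Oct4-SK, day 1 minus day 5, turned to -2.36 with 50 bp, -1.24 with a score of at least 10, -4.80 with equal numbers and -6.48 with equal numbers and the members kept. No paired analysis was possible because each condition had 1 library, so no replicates could be paired (the paired intervals are over sites). No library could be left out for the same reason, and a site called in 1 list and not in another may lie just under a threshold, so an absent call is not an absence of binding.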
